A study of Homo sapiens with 6 samples.

Results

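The nuclear pore complex and the receptors that carry cargo through it were described in THP1 cells exposed for 6 h to Withaferin A (WFA), a steroidal lactone, or to its DMSO vehicle. Members were the genes whose symbol was NUP, KPNA, KPNB, IPO, XPO or TNPO followed by a number (or by T in XPOT), with a final letter allowed for NUP genes. This gave 44 of the 26485 genes counted, of which 20 were pore subunits, 18 importins and 6 exportins. The rule used symbols only. THP1 is a human acute monocytic leukemia cell line, and both groups were cultured alike apart from the agent. The RNA of 3 DMSO and 3 WFA cultures, each pair from an independent experiment, was sequenced in 6 libraries. The WFA dose was 1 μM in the methods but 1 mM in the labels of the samples, and the first is used.

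Nuclear pores are large channels in the nuclear envelope built from nucleoporins, which form an outer ring, an inner ring, a central channel lined with phenylalanine-glycine repeats, a basket on the nuclear side and filaments on the cytoplasmic side. Importins bind proteins with a nuclear localization signal in the cytoplasm and release them in the nucleus when they meet the GTPase Ran in its GTP form. Exportins work the other way round, binding cargo together with Ran-GTP and releasing it in the cytoplasm. Importin alpha proteins (KPNA) are adaptors that join a cargo to importin beta (KPNB1), whereas the other importins and transportins bind cargo directly.

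Libraries held 11006035 to 13872810 counts, and 42 of the 44 members passed the filter on low counts, as did 12854 genes in all. The 2 members not tested were NUP210L, a relative of a pore membrane protein, with at most 2 counts in any library, and KPNA7, with at most 1 count. The 9 monocytic markers checked summed to 2630 to 3210 CPM (counts scaled to the library's size with TMM factors) in DMSO and 2350 to 3150 CPM in WFA libraries, with MPO lowest at no more than 40 counts. Most of that sum came from LYZ, with means of 1820 and 1760 CPM, and single markers moved within it. CD33 averaged 74.4 CPM in DMSO and 41.3 CPM in WFA, PTPRC 257 and 184 CPM, CSF1R 237 and 180 CPM, and CD68 281 and 362 CPM. The 9 markers of other cell types summed to 355 to 401 CPM in DMSO and 316 to 335 CPM in WFA libraries, nearly all from PECAM1, while HBB had 0 counts and CD3E, MS4A1, EPCAM and KRT18 had at most 4. COL1A1 in that list averaged 0.453 CPM in DMSO and 9.95 CPM in WFA. The part of these markers in the results was not tested. In bulk RNA, fewer cells carrying a transcript and less of it per cell cannot be told apart, and protein levels were not measured by these libraries.

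WFA lowered most of the transport machinery at the RNA level. Of the 42 members tested, 29 were lower with WFA, 3 were higher and 10 did not pass the threshold of an adjusted p under 0.05 in edgeR's quasi-likelihood test. Over all tested genes, 24.7% were lower and 25.8% were higher, against 69% and 7.14% of the members. After scaling to total counts in place of TMM, 3875 of all genes were lower and 2763 higher, and 30 members were lower and 2 higher. The median log2 fold change, WFA over DMSO, was -0.39 for the members and 0.02 for all genes. Changes of more than 2-fold were found for 4 lower members, XPO5, NUP35, IPO11 and KPNA2, where 5.2% of all genes fell that far, and for 1 higher member, KPNA5, where 8.11% of all genes rose that far. On GRCh38.p14 these genes lie at chr6:43522334-43576038 (XPO5), chr2:183117514-183161680 (NUP35), chr5:62412763-62628582 (IPO11), chr17:68035735-68046854 (KPNA2) and chr6:116681211-116741867 (KPNA5), so that they are spread over 4 chromosomes. All WFA libraries lay below all DMSO libraries for 29 members and above them for 3, compared with 28.5% and 29.6% of all genes. The first 29 include KPNA1, which did not pass the threshold, and leave out TNPO2, which did. All 32 members past the threshold moved in the same direction in each of the 3 same-numbered pairs of libraries.

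**Figure D1:**
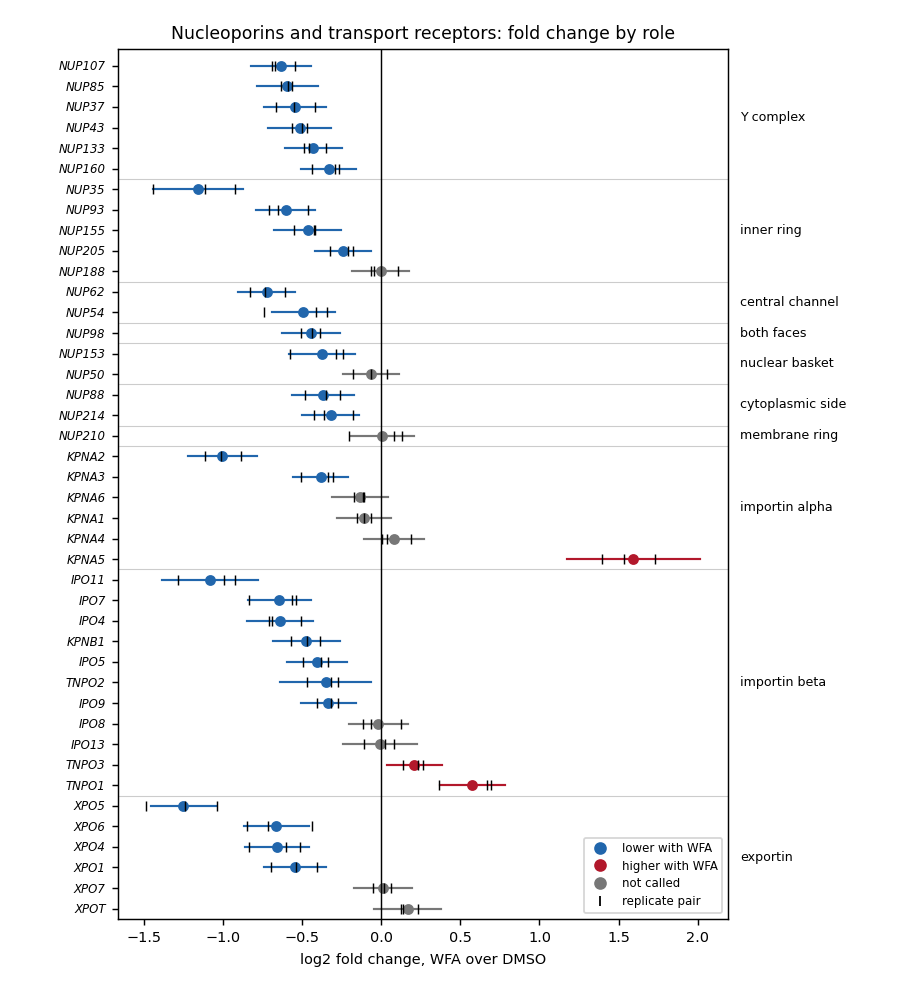
Log2 fold change (WFA over DMSO) of each of the 42 tested members, grouped as pore subunits, importins and exportins. Dots are the edgeR estimates, lines their 95% confidence intervals and ticks the 3 same-numbered pairs. Blue marks the 29 members lower with WFA, red the 3 higher members and grey the 10 that did not pass the threshold. The pore subunits lie between -1.16 and 0.01 and include no red dot, whereas the importins spread from -1.08 to 1.59.

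The 3 classes shared the downward shift to different extents, which were compared as a description. Among 19 pore subunits tested, 16 were lower and 0 higher, and their median was -0.45 on the log2 scale. Among 6 exportins, 4 were lower and 0 higher, with a median of -0.60. The 17 importins were the mixed class, with 9 lower, 3 higher and a median of -0.33. That was 52.9% lower and 17.6% higher, against 24.7% and 25.8% of all tested genes. These shares of all genes are the background for the counts of called genes given below. Summed over each class, pore transcripts went from 2592 ± 86 to 2057 ± 20.1 CPM (SD, n = 3) and fell by 20.7%. Exportin transcripts went from 1746 ± 74.2 to 1321 ± 8.24 CPM and fell by 24.4%. Importin transcripts went from 3617 ± 185 to 3124 ± 141 CPM and fell by 13.6%. The importin sum includes TNPO1, which rose by 49.1%, from 463.3 ± 36.4 to 690.8 ± 54.1 CPM. The smaller fall of this class sum therefore depends on a single gene. Without TNPO1, the importin sum fell by more than the pore sum. All members together took 0.775% to 0.869% of the counts in DMSO libraries and 0.623% to 0.644% in WFA libraries, so the groups did not overlap.

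Short stretches upstream of 5 members are shown, because they hold a match to one of 3 motifs searched for and belong to genes that fell (XPO1, IPO7, KPNA2, NUP133) and from one that rose (TNPO1). RefSeq promoter windows on GRCh38.p14, from 250 bases before to 50 bases after the gene start, were found for 38 of the 44 members, and none for KPNA4, KPNA5, KPNA7, KPNB1, NUP43 and XPO7. Sequences run 5′ to 3′ on the gene's strand, and capitals mark a match. For TNPO1 and KPNA2, exons were looked up in a longer stretch around the printed bases, and the exons named in their labels reach that longer stretch. Whether they reach the printed bases themselves was not checked. The lookup gave the gene of the exon but not its transcript. The motifs, searched on both strands, were the E-box CACGTG, a pair of facing heat shock units GAANNTTC or TTCNNGAA, and the core of the antioxidant response element TGACNNNGC.
XPO1 (chr2:61537182-61537237, minus strand, facing heat shock units, within the gene's span but outside GENCODE 29 exons): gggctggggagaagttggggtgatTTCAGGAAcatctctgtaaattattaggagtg
XPO1 (chr2:61537145-61537205, minus strand, both arrangements overlapping, likewise outside exons): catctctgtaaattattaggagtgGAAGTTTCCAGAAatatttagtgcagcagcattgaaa
TNPO1 (chr5:72816582-72816607, plus strand, facing heat shock units, reached by an exon of another TNPO1 transcript in GENCODE 29): accgccgccGAATGTTCccgccgcgg
IPO7 (chr11:9384490-9384543, plus strand, E-box, no exon): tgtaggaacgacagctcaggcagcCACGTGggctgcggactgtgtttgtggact
KPNA2 (chr17:68035679-68035705, plus strand, antioxidant response element core, reached by an exon of another KPNA2 transcript): aatcggaatGCGGAGTCAccgggaaat
NUP133 (chr1:229508408-229508464, minus strand, antioxidant response element core, no exon): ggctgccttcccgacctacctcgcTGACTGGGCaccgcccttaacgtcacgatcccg

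Matches were found in members that fell, in one that rose and in members that did not pass the threshold. The E-box was present in 15.8% of the members' windows, against 7.28% of 27305 RefSeq promoters and 9.76% of the promoters of tested genes. Its holders were XPO1, KPNA3, IPO4 and IPO7, which were lower with WFA, and NUP188 and NUP50, which did not pass the threshold. Facing heat shock units were present in 10.5% of the members' windows, against 13.8% of all promoters and 10.3% of those of tested genes, and were found both in XPO1, NUP93 and NUP160, which fell, and in TNPO1, which rose. The antioxidant core was present in 23.7% of the members' windows, against 13.5% and 15.2%. By call, it was present in 25.9% of the windows of lower members and 25% of those of members that did not pass the threshold. Neither of the 2 windows of higher members held it. For the E-box, the shares were 14.8% of lower members, 25% of those that did not pass and 0% of higher members. A match in these windows is a description of the sequence, and binding of any factor was not measured.

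All 6 tested members of the outer ring, or Y complex, were lower with WFA, at a median of -0.53 on the log2 scale. NUP107, a structural subunit of that ring, had 137, 128 and 131 CPM in DMSO replicates 1, 2 and 3 and 93.4, 79.3 and 82.3 CPM in the WFA replicates. Every WFA library was below every DMSO library, and the log2 fold change was -0.63 (SE 0.09, edgeR adjusted p = 2.86e-05). The other outer ring genes fell by 0.60 (NUP85), 0.55 (NUP37), 0.52 (NUP43), 0.43 (NUP133) and 0.33 (NUP160) on the log2 scale. The 6 outer ring subunits named by the rule lay in a narrow range, from -0.63 to -0.33, as the plot of fold changes shows. That range does not describe the whole ring, because subunits with other symbols lay outside it. AHCTF1, a pore gene with another symbol, stood at -0.06 and did not pass the threshold. SEH1L and SEC13, which are also outer ring subunits but are not named by the rule, had log2 fold changes of -1.19 (edgeR adjusted p = 6.14e-07) and 0.01 (edgeR adjusted p = 0.937).

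The inner ring, which anchors the pore to the membrane, had 4 of 5 subunits lower, with a median of -0.46. NUP35, a membrane-binding inner ring subunit, showed the largest fall among the 19 tested NUP genes, with 24.9, 26.3 and 28.4 CPM in DMSO and 11.4, 13.8 and 10.3 CPM in WFA replicates 1, 2 and 3. The groups were far apart, and expression was 2.23-fold lower with WFA (log2 fold change -1.16, SE 0.13, edgeR adjusted p = 4.77e-06). NUP35 was also one of the least counted NUP genes, and GENCODE 29 names 2 pseudogenes of it, whose reads may be hard to tell from its own. NUP93, which links the inner ring to the central channel, fell by 0.61, NUP155 by 0.46 and NUP205 by 0.24 on the log2 scale. NUP205 lost its call when DMSO replicate 1, DMSO replicate 3 or WFA replicate 2 was left out. NUP188, a close structural relative of NUP205, had a log2 fold change of -0.004 (95% confidence interval -0.18 to 0.17) and did not pass the threshold.

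In the central channel, both NUP62 and NUP54, which carry the phenylalanine-glycine repeats that transport receptors touch, were lower. NUP62 had 134, 125 and 124 CPM in DMSO and 75.6, 82.2 and 74.4 CPM in WFA replicates 1, 2 and 3, with no overlap (log2 fold change -0.72, SE 0.08, edgeR adjusted p = 5.26e-06). Exons of NUP62 overlap those of IL4I1 on the same strand, which had a log2 fold change of -0.58, and of ATF5 on the opposite strand, which had 0.33. The library kit does not mark strand, so reads in the shared stretches cannot be told apart. NUP54 fell by 0.49, while the third subunit of that complex, listed under its older symbol NUPL1, had -0.14 and did not pass the threshold (edgeR adjusted p = 0.218).

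NUP98, a mobile nucleoporin found on both faces of the pore, is also known as a fusion partner in acute myeloid leukemia. It had 219, 227 and 251 CPM in DMSO and 162, 174 and 176 CPM in WFA replicates 1, 2 and 3, so that the groups did not overlap (log2 fold change -0.45, SE 0.09, edgeR adjusted p = 0.000583). NUP153, a subunit of the nuclear basket, had 67.7, 68.5 and 82.8 CPM in DMSO and 57.3, 56.1 and 55.4 CPM in WFA. The WFA libraries were close together below a wider DMSO group (log2 fold change -0.38, SE 0.10, edgeR adjusted p = 0.00461). NUP50, which also sits at the basket, had -0.07 and did not pass the threshold. TPR, the main protein of the basket and not named by the rule, had -0.31 (edgeR adjusted p = 0.00957). On the cytoplasmic side, where export complexes are taken apart, NUP88 fell by 0.37 and NUP214 by 0.32. NUP210, a membrane-spanning ring protein, had 0.01 (95% confidence interval -0.19 to 0.21).

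**Figure D2:**
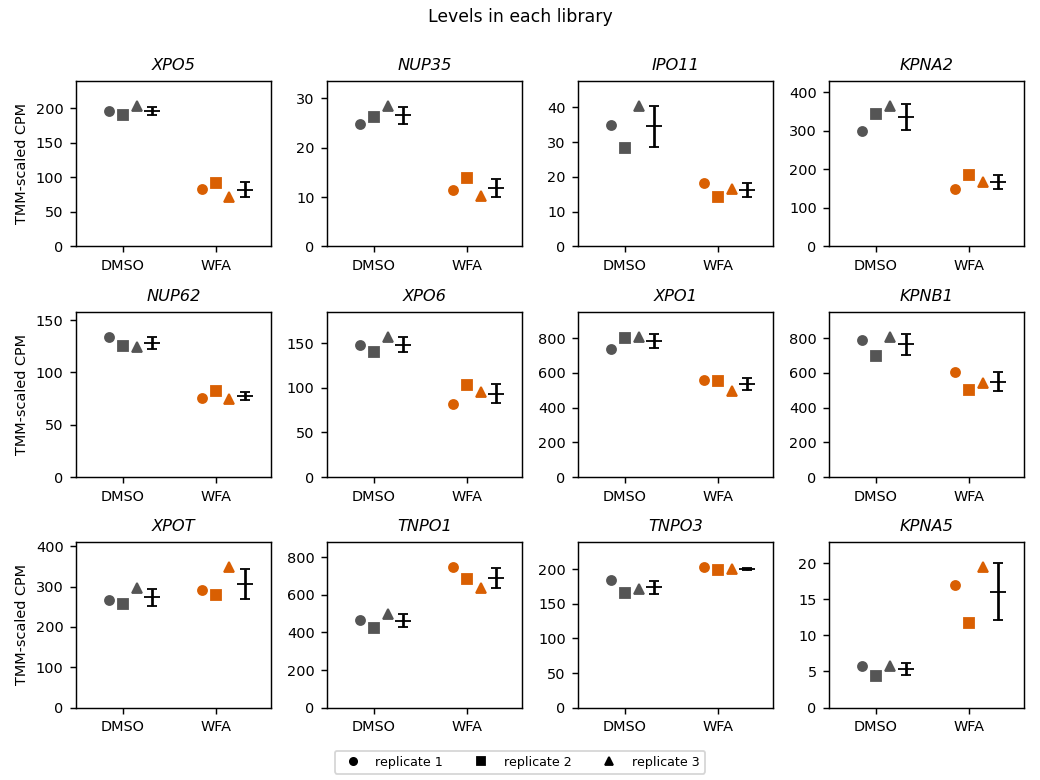
TMM-scaled CPM of 12 members in each library, 1 panel per gene on its own linear axis from 0. Markers show replicates 1, 2 and 3, and the bars beside them the mean with SD (n = 3 per group). XPO5, NUP35, IPO11, KPNA2, NUP62, XPO6, XPO1 and KPNB1 are lower in every WFA library, TNPO1, TNPO3 and KPNA5 are higher in every WFA library, and the groups overlap for XPOT.

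The importin alpha adaptors did not move together. Among the 6 tested, KPNA2 and KPNA3 were lower, KPNA5 was higher and KPNA1, KPNA4 and KPNA6 did not pass the threshold, with log2 fold changes of -0.11, 0.08 and -0.13. KPNA2 had 300, 344 and 364 CPM in DMSO and 149, 185 and 168 CPM in WFA replicates 1, 2 and 3. It was 2.01-fold lower with WFA (log2 fold change -1.005, SE 0.10, edgeR adjusted p = 1.45e-06), and GENCODE 29 names 3 pseudogenes of it. KPNA5 had 5.77, 4.34 and 5.75 CPM in DMSO and 17, 11.7 and 19.4 CPM in WFA, the opposite pattern. That was 3.02-fold higher (log2 fold change 1.59, SE 0.20, edgeR adjusted p = 9.94e-06), but it rested on 82, 55 and 69 counts in DMSO and 208, 145 and 209 counts in WFA libraries. KPNA3 fell by 0.38 on the log2 scale.

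KPNA2 gave up part of the importin alpha pool but stayed its largest member. The pool was taken as the summed RPKM of the KPNA genes, the CPM per kilobase of the union of GENCODE 29 exons. KPNA2 made up 55.3%, 58.6% and 59% of it in DMSO replicates 1, 2 and 3, and 39.1%, 45.5% and 43.1% in the WFA replicates, so that the groups did not overlap. KPNA4, whose own level did not pass the threshold, went from 11% ± 0.738 to 17.2% ± 1.94 of the pool (SD, n = 3). KPNA5 went from 0.224% ± 0.0397 to 1.01% ± 0.271 and was the smallest of the 6 tested in both groups. The RPKM ratio of KPNA2 to KPNA4 went from 5.28 ± 0.515 to 2.51 ± 0.471, and an exact two-sided permutation test of it on the log2 scale gave p = 0.1, the smallest that 3 libraries against 3 allow. This ratio restates the fall of KPNA2 beside a gene that did not pass the threshold. Its test therefore adds no separate support.

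**Figure D3:**
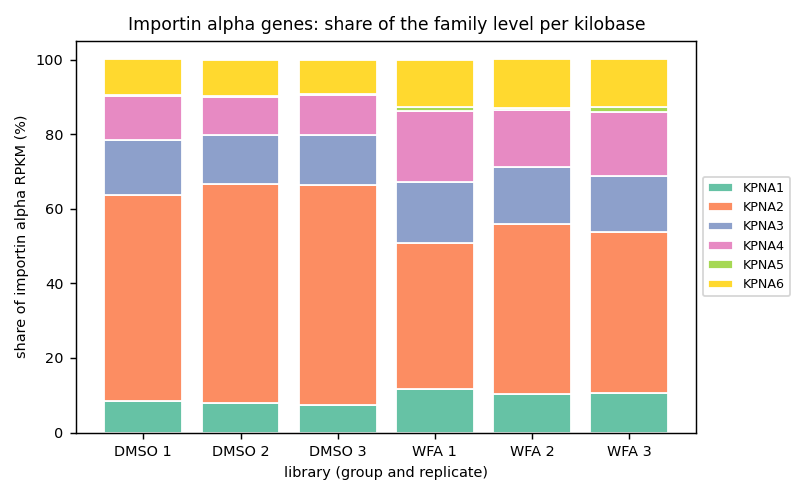
Share of each importin alpha gene in the summed RPKM of the KPNA genes, in percent, as stacked bars for each of the 6 libraries. KPNA2 takes 55.3% to 59% in the DMSO libraries and 39.1% to 45.5% in the WFA libraries, and is the largest part of every bar.

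Of the 11 importins of the beta type, 7 were lower and 2 higher, at a median of -0.35 on the log2 scale. KPNB1, the partner of the importin alpha adaptors, had 792, 695 and 808 CPM in DMSO and 607, 501 and 544 CPM in WFA replicates 1, 2 and 3. No WFA library reached the DMSO range (log2 fold change -0.47, SE 0.10, edgeR adjusted p = 0.00108). IPO11 had 34.9, 28.4 and 40.3 CPM in DMSO and 18.3, 14.2 and 16.5 CPM in WFA, and was thus 2.12-fold lower in spite of its spread (log2 fold change -1.08, SE 0.14, edgeR adjusted p = 1.79e-05). IPO7 fell by 0.64, IPO4 by 0.64, IPO5 by 0.41 and IPO9 by 0.33 on the log2 scale. Exons of IPO11 overlap those of KIF2A and LRRC70 on the same strand, which had log2 fold changes of -0.33 and -0.13, and the part of shared reads was not tested. IPO5, IPO7 and IPO9 are known to carry ribosomal proteins or histones. IPO8 and IPO13 did not pass the threshold, with -0.02 and -0.01 and confidence intervals from -0.21 to 0.17 and from -0.24 to 0.23.

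TNPO1, which imports RNA-binding proteins, had 469, 424 and 496 CPM in DMSO and 747, 687 and 639 CPM in WFA replicates 1, 2 and 3. It was 1.49-fold higher with WFA, with no overlap of the groups (log2 fold change 0.58, SE 0.10, edgeR adjusted p = 0.000156). GENCODE 29 names 3 pseudogenes of TNPO1. Its close homologue TNPO2 had -0.35 (edgeR adjusted p = 0.0415), although its WFA and DMSO libraries overlapped, and this call was lost when DMSO replicate 3, WFA replicate 1 or WFA replicate 2 was left out. The RPKM ratio of TNPO1 to TNPO2 went from 4.52 ± 0.524 to 8.81 ± 2.35 (SD, n = 3), which restates the changes of these genes and adds no separate support. TNPO3, which imports serine and arginine-rich splicing factors, had 184, 166 and 171 CPM in DMSO and 203, 199 and 201 CPM in WFA, with all WFA libraries higher. The size was small (log2 fold change 0.21, SE 0.08, edgeR adjusted p = 0.0449), and the call was lost when any 1 library was left out, with adjusted p = 0.0764 in DESeq2 and 0.228 after scaling to total counts. TNPO1 alone took 5.82% of all member counts in DMSO and 10.6% in WFA.

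Among the exportins, XPO5, which brings precursor microRNAs to the cytoplasm, showed the largest fall of any member. It had 196, 191 and 203 CPM in DMSO and 82.6, 92.6 and 72.3 CPM in WFA replicates 1, 2 and 3. All DMSO libraries were far above any WFA library, and expression was 2.38-fold lower (log2 fold change -1.25, SE 0.10, edgeR adjusted p = 8.14e-08). An exon of XPO5 overlaps POLR1C, an RNA polymerase subunit gene on the opposite strand, which stood at -1.49 on the log2 scale (SE 0.12, edgeR adjusted p = 1.23e-07), and the part of shared reads was not tested. XPO6, the exportin of actin, had 148, 140 and 157 CPM in DMSO and 82.1, 103 and 95.5 CPM in WFA, again without overlap (log2 fold change -0.67, SE 0.10, edgeR adjusted p = 4.11e-05). XPO4 fell by 0.66 on the log2 scale.

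XPO1, the general exportin of proteins with a leucine-rich export signal and a drug target in leukemia, had 737, 804 and 808 CPM in DMSO. The WFA replicates had 557, 554 and 498 CPM, all below the DMSO libraries, which was 1.46-fold lower (log2 fold change -0.55, SE 0.09, edgeR adjusted p = 0.000154). XPOT, which exports transfer RNAs, had 267, 256 and 297 CPM in DMSO and 293, 279 and 348 CPM in WFA, and the groups overlapped. Its log2 fold change was 0.17 (SE 0.10, 95% confidence interval -0.05 to 0.38, edgeR adjusted p = 0.183). XPO7 had 0.01, with an interval from -0.17 to 0.19. The RPKM ratio of XPO5 to XPOT, the exporters of precursor microRNAs and of transfer RNAs, went from 0.862 ± 0.0392 to 0.327 ± 0.0748 (SD, n = 3), and every DMSO library was above every WFA library. That ratio restates the fall of XPO5 beside a gene that did not pass the threshold, and adds no separate support.

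Over all classes, the 10 members that did not pass the threshold had log2 fold changes between -0.13 and 0.17, and their 95% confidence intervals lay within -0.31 and 0.38. Changes of 2-fold in either direction were therefore outside the interval of each of them. All 3 pairs of libraries contributed to the falls, but unequally. In 23 of the 29 lower members the largest fall was in pair 3, in 5 in pair 1 and in 1 in pair 2. Among all 3178 lower genes, pair 3 had the largest fall in 59.6%, pair 1 in 26.5% and pair 2 in 13.9%. The median over the 42 tested members was -0.35, -0.34 and -0.50 in pairs 1, 2 and 3.

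Levels were compared between genes as RPKM. XPO1 was the most abundant member in both groups, with 147 ± 7.6 RPKM in DMSO and 101 ± 6.2 RPKM in WFA (SD, n = 3). KPNA2 with 121 ± 12 and KPNB1 with 114 ± 9.2 RPKM followed in DMSO, and differed by less than their spread. In WFA, KPNB1 had 82.4 ± 7.9 RPKM, and TNPO1 with 61.4 ± 4.8 and KPNA2 with 60.3 ± 6.6 RPKM came next and again differed by less than their spread. TNPO1 had stood at 41.2 ± 3.2 RPKM in DMSO, close to XPOT with 42.6 ± 3.3 and NUP54 with 40.1 ± 1.8. XPO5 went from 36.6 ± 1.2 to 15.4 ± 1.9 RPKM, from close to TNPO3 in DMSO to close to KPNA1 and NUP88 in WFA. NUP210 at 47 ± 2.9 RPKM in DMSO was the highest of the NUP genes. The lowest tested member in both groups was KPNA5, with 0.467 ± 0.072 and 1.42 ± 0.35 RPKM, so that the gene with the largest rise stayed the least abundant.

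**Figure D4:**
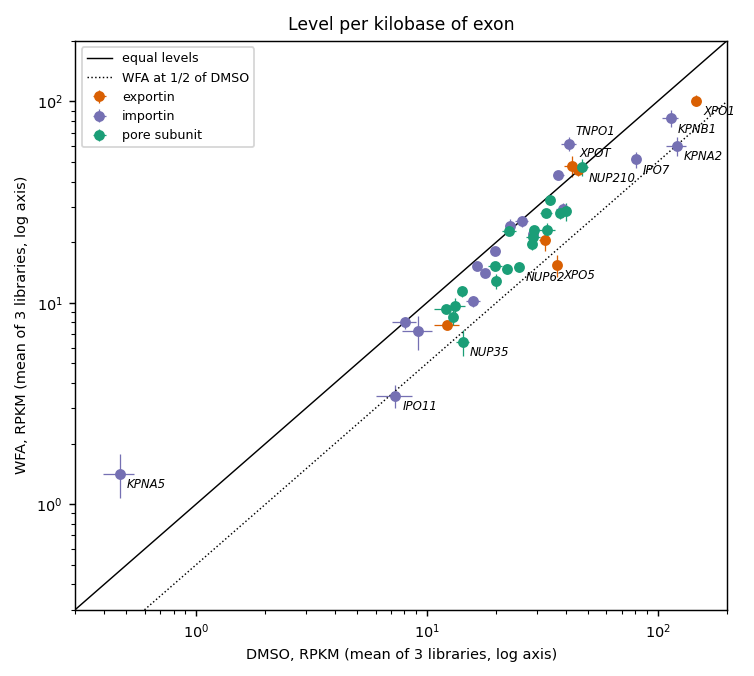
Mean level of each tested member in RPKM in WFA (vertical, log axis) against DMSO (horizontal, log axis), coloured by class, with bars for the SD over 3 libraries. The solid line marks equal levels and the dotted line WFA at 0.5 of DMSO. TNPO1 and KPNA5 lie above the solid line, XPO5, NUP35 and IPO11 lie just below the dotted line, and XPO1 leads both axes at 147 and 101 RPKM.

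The genes that work with these members but carry other names were read from the same fit. Of 46 such genes, 45 were tested, since DDX39B had 0 counts in every library. Among them 22 were lower and 4 higher, or 48.9% and 8.89%, against 24.7% and 25.8% of all tested genes. Their median was -0.23 on the log2 scale. Of 16 pore genes with other symbols 7 were lower and 0 higher, of 7 carriers 4 were lower and 1 higher, of 15 mRNA export genes 8 were lower and 1 higher, and of 7 genes of the Ran cycle 3 were lower, 2 were higher and 2 did not pass the threshold. For the Ran cycle that was 42.9% lower and 28.6% higher, the latter near the share of all genes. The RAN gene itself had 662, 675 and 685 CPM in DMSO and 583, 588 and 566 CPM in WFA replicates 1, 2 and 3, a small but separate difference (log2 fold change -0.22, SE 0.08, edgeR adjusted p = 0.0418).

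In the Ran cycle, RAN, RCC1 and RANBP1 were lower, RANGAP1 and RANBP3 were higher, and NUTF2 and RANGRF did not pass the threshold. RCC1, the exchange factor that loads Ran with GTP on chromatin, had 105, 104 and 99.4 CPM in DMSO and 60, 69.4 and 57.1 CPM in WFA replicates 1, 2 and 3. It was lower in every WFA library (log2 fold change -0.73, SE 0.09, edgeR adjusted p = 1.21e-05). RANGAP1, which makes Ran hydrolyse its GTP in the cytoplasm, had 96.3, 85.5 and 90 CPM in DMSO and 292, 335 and 357 CPM in WFA. It was 3.62-fold higher, against 3.02-fold for KPNA5, the member that rose furthest (log2 fold change 1.86, SE 0.10, edgeR adjusted p = 1.73e-09). RANBP1, which helps RANGAP1 act on Ran, had -0.51 on the log2 scale (edgeR adjusted p = 0.000473). CSE1L, the exportin that returns importin alpha to the cytoplasm, had 338, 294 and 329 CPM in DMSO and 231, 196 and 197 CPM in WFA, so it was lower together with KPNB1 and KPNA2 (log2 fold change -0.62, SE 0.10, edgeR adjusted p = 7.22e-05).

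**Figure D5:**
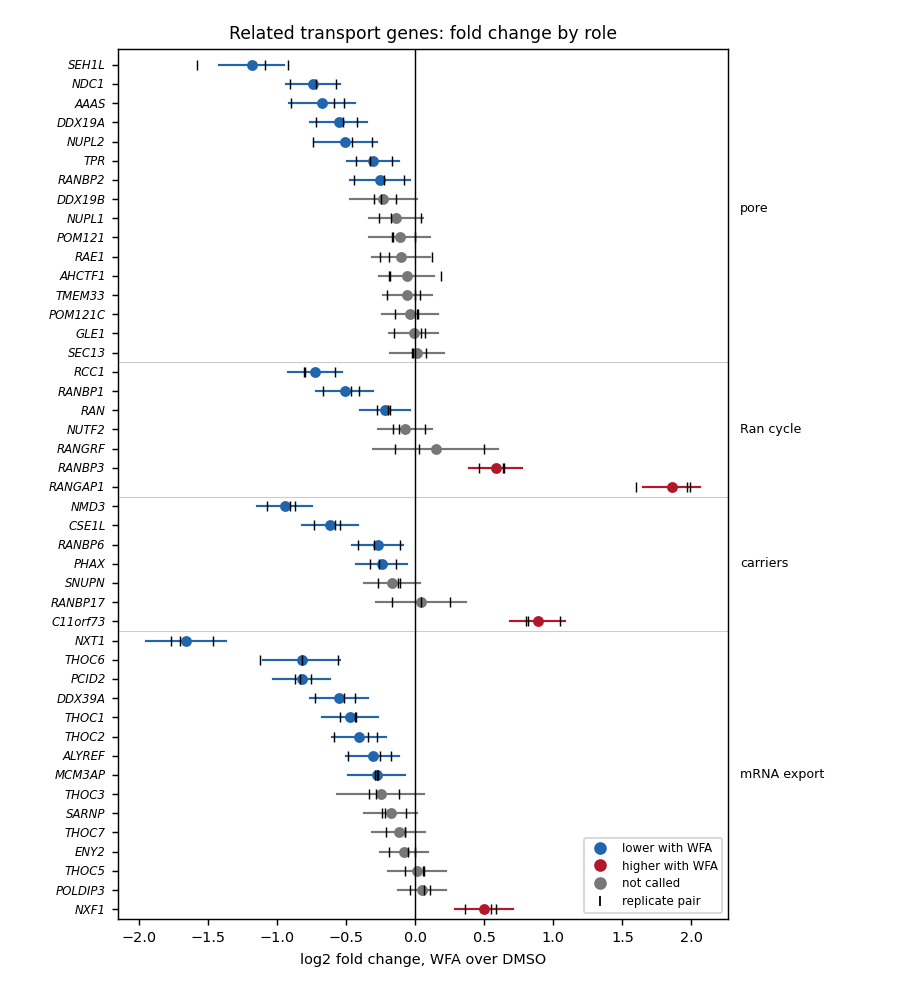
Log2 fold change (WFA over DMSO) of the 45 tested genes of nuclear transport outside the naming rule, by role. Dots are edgeR estimates, lines 95% confidence intervals and ticks the 3 pairs. RANGAP1 stands highest at 1.86 and NXT1 lowest at -1.66, with 22 genes lower and 4 higher.

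Messenger RNA leaves the nucleus with NXF1 and its cofactor NXT1 rather than with an exportin. NXT1 had 25, 23.8 and 22.6 CPM in DMSO and 7.19, 8.54 and 6.79 CPM in WFA replicates 1, 2 and 3, the largest fall in this list (log2 fold change -1.66, SE 0.14, edgeR adjusted p = 1.59e-07). NXF1 itself was higher in every WFA library, at 0.50 on the log2 scale (edgeR adjusted p = 0.000602). NMD3, the adaptor that joins the large ribosomal subunit to XPO1, had 116, 130 and 121 CPM in DMSO and 63.6, 69.3 and 57.4 CPM in WFA (log2 fold change -0.95, SE 0.09, edgeR adjusted p = 8.9e-07). Both NMD3 and XPO1 were thus lower in every WFA library. HIKESHI, listed as C11orf73, imports heat shock protein 70 after heat stress and had 45.2, 41.5 and 38.4 CPM in DMSO and 78.7, 73.1 and 79.7 CPM in WFA, all WFA libraries being higher (log2 fold change 0.89, SE 0.09, edgeR adjusted p = 2.07e-06). RANBP3, a cofactor of XPO1, had 54.7, 54.7 and 56 CPM in DMSO and 75.2, 85 and 87.4 CPM in WFA, in the direction opposite to XPO1 (log2 fold change 0.58, SE 0.09, edgeR adjusted p = 7.26e-05).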

How the data were processed

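RNA-seq libraries (Illumina TruSeq RNA v2, which does not mark strand) came from THP1 cells, 3 with DMSO and 3 with WFA. The authors deposited whole-number read counts per gene, not normalized. The 6 scaled columns beside them, a column for each library, and the authors' own comparison (fold changes, p-values) were not used here. The submitters' processing notes name hg38, bcl2fastq 2.19, Trimmomatic, Bowtie2, Picard, featureCounts and DESeq2. The annotation, strand setting and treatment of multiply mapped reads are not given in the sources used here.

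Counts were fitted with edgeR 4.0.16 in R 4.3.3 (TMM, filterByExpr with a minimum count of 10, quasi-likelihood test, Benjamini-Hochberg adjustment over 12854 genes, threshold 0.05). CPM values use TMM-scaled library sizes, and confidence intervals are at 95%. SE values are the log2 fold change divided by the square root of the F statistic. The fits were tested on simulated data that held no pair effect, so the pairing described below was not covered. With the fit used for the results, 89.9% of changes of 1 and 60% of changes of 0.5 (log2 scale) were recovered. Of the calls, 5.7% were false. Out of 12737 genes in that simulation, 99 were given changes of 1 and 100 were given changes of 0.5. In the results, 3178 of 12854 genes were called lower and 3311 higher. Whether the same shares hold with so many changed genes was not tested. Libraries held 11006035 to 13872810 counts, but precision also rests on the spread between the 3 libraries of a group. The p-values come from a fit without the replicate block, so they take in the spread between experiments.

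Same-numbered libraries deviated together (r across genes 0.217, 0.333 and 0.245, against -0.256 to 0.004 for others, and their labels share a tag), so the numbers pair the samples. Libraries of a group differed beyond sampling noise (chi-square per gene 5.92 to 10.9). Alternatives were the replicate block, DESeq2 1.42.0, other scalings and filters, and leaving out each library.

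Full values are given for the 6 largest falls and up to 6 largest rises past the threshold with 1 direction in all pairs, for 11 members fixed by role, for RAN, RCC1 and CSE1L, and for the 3 smallest p-values in each direction among related genes. Members, lists and motifs were chosen with earlier results of these data known. Exon lengths and overlaps came from GENCODE 29 (44 of 44 members matched), and promoters from RefSeq on GRCh38.p14 (38 matched).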

Additional observations from a re-analysis of the deposited data

How the results depend on the processing

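Counts called and medians of all genes, members, classes and related genes, and each tested member's log2 fold change, were recomputed under 13 alternatives. Calls of single related genes, class sums, RPKM levels, shares and ratios were not recomputed. With the replicate block, the members kept 29 lower and 3 higher calls and a median of -0.39, no member call changed, and all genes gave 3877 higher and 3708 lower. Of the 29 lower members, 27 kept their call under all 13 alternatives, and none of the 32 called members reversed. The median log2 fold change of all genes was 0.00081 with DESeq2, 0.0088 with DESeq2's size factors in edgeR, 0.0084 without the low-count filter, and, with the sign reversed, -0.063 after scaling to total counts. Total counts also gave medians of -0.53 for pore subunits, -0.42 for importins and -0.32 for related genes. Leaving out 1 library moved the importin median between -0.37 and -0.22 (DMSO replicates 2 and 3 and WFA replicates 1 and 3 moved it most) and the number of lower members between 27 and 29. Lower related genes, 22 with all libraries, were then between 17 and 21.

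TNPO2 lost its call with upper quartile scaling, a minimum count of 50, or without DMSO replicate 3, WFA replicate 1 or WFA replicate 2, with edgeR adjusted p from 0.0515 to 0.208. TNPO3 lost it with DESeq2 (0.0764), total counts (0.228), DESeq2's size factors (0.0616), no filter (0.103) and without any 1 library. NUP205 lost it without DMSO replicate 1, DMSO replicate 3 or WFA replicate 2 (0.0659 to 0.0842). KPNA6 was called lower with total counts only (edgeR adjusted p = 0.0436).

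Members near 0 changed sign without being called. With DESeq2, total counts, DESeq2's size factors and no filter, XPO7 had log2 fold changes of -0.010, -0.075, -0.0023 and -0.0026, and NUP210 -0.015, -0.079, -0.0070 and -0.0075. KPNA4 had -0.0073 with total counts, IPO13 0.0068 with a minimum count of 50, and NUP188 0.0015 with upper quartile scaling and 0.0098 with a minimum count of 50. Leaving out 1 library gave -0.030 to 0.066 for XPO7, -0.066 to 0.068 for NUP210, -0.086 to 0.089 for IPO13, -0.062 to 0.036 for IPO8 and -0.073 to 0.030 for NUP188. The cause of these shifts was not tested. With 3 libraries a group, a missed threshold does not show that a member was unchanged. Reads of pseudogenes and of genes with overlapping exons could not be separated from those of the members.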
